A study of Rattus norvegicus with 12 samples.

Results

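The 43 genes described here encode the ligands, receptors, antagonists, Smad proteins and early targets of the transforming growth factor beta (TGF-β) and bone morphogenetic protein (BMP) pathway. They were taken by gene name from the 19687 genes listed in at least 1 of 3 tables of rat lung RNA sequencing, and all 43 were present in each table. The lungs came from 9-week-old rats that had all received monocrotaline (MCT) at 60 mg/kg, a plant toxin used to induce pulmonary hypertension, so that no healthy lung was among the 12 libraries. By subcutaneous minipump, 3 rats each were given angiotensin II (AngII) at 1 mg/kg/day, TRV023 at 10 µg/kg/min, losartan at 10 mg/kg/day or phosphate-buffered saline as vehicle. AngII activates the G proteins and β-arrestins of the angiotensin II type 1 receptor, TRV023 is a peptide that favors β-arrestin over G protein signaling at this receptor, and losartan blocks it. The study's methods state male Sprague-Dawley rats. Pumps began 1 week after MCT and ran for 2 weeks in the histology and hemodynamic experiments, and no other schedule is stated for the sequenced lungs. Pieces of whole lung were sequenced, so a smaller number of cells of a type and less RNA per cell cannot be told apart.

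Ligands of this family bring together type II and type I receptors, and the type II receptor phosphorylates the type I receptor. TGF-β and activin receptors then phosphorylate Smad2 and Smad3, whereas BMP receptors phosphorylate Smad1, Smad5 and Smad9, and both sets join Smad4 and enter the nucleus. In the endothelium of the lung, BMP signals pass through Bmpr2, Acvrl1 and the co-receptor Eng, and Id genes are among their early targets. Inherited loss of BMPR2 function is the main heritable cause of human pulmonary arterial hypertension, with ACVRL1, ENG and SMAD9 as rarer causes.

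Counted reads per library ranged from 16106337 to 20096877. All 8 endothelial and all 7 alveolar type 2 markers were read. The mitochondrial share of reads was 9.62% to 12.3% in AngII, 4.36% to 7.07% in TRV023, 5.1% to 10% in losartan and 5.65% to 7.55% in vehicle libraries. Among vehicle libraries, Veh_963 stood apart in smooth muscle markers, whose summed level was 2765 FPKM there and 749 to 1104 FPKM in the other vehicle libraries. Cardiac muscle markers summed to 288.6 FPKM in Veh_963, against 24.2 and 44.5 FPKM in the other vehicle libraries. Its ciliated and club cell sums were also the highest among vehicle libraries. FPKM, the number of fragments per kilobase of gene length scaled to the library total, is used for all levels below.

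The pathway was well represented in these lungs. Mean FPKM over the 12 libraries was at least 1 for 39 of the 43 genes, at least 10 for 28 and at least 100 for 6, and 10 genes stood above 90% of all listed genes. Eng, the endothelial co-receptor, had the highest mean at 323 FPKM, followed by the Id genes Id1 at 311 and Id3 at 226 FPKM. Tgfb1, the main TGF-β ligand, averaged 132 FPKM, the endothelial type I receptor Acvrl1 122 FPKM, and Smad6, an inhibitory Smad induced by BMP, 116 FPKM. In each remaining class the most abundant genes were Tgfbr2 at 65.8, Tgfbi at 52.7, the activin antagonist Fstl3 at 43.6, the ubiquitin ligase Smurf2 at 36, Smad1 at 25.5 and Smad4 at 20.7 FPKM. The lowest were Bmp7 at 0.467, Bmpr1b at 0.579, Acvr2b at 0.671 and the BMP antagonist Grem1 at 0.922 FPKM. Bmpr1b was the only gene without reads in some libraries, namely Ang2_931 and Ang2_933, and its highest value, 2.72 FPKM, was in Veh_963.

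**Figure D1:**
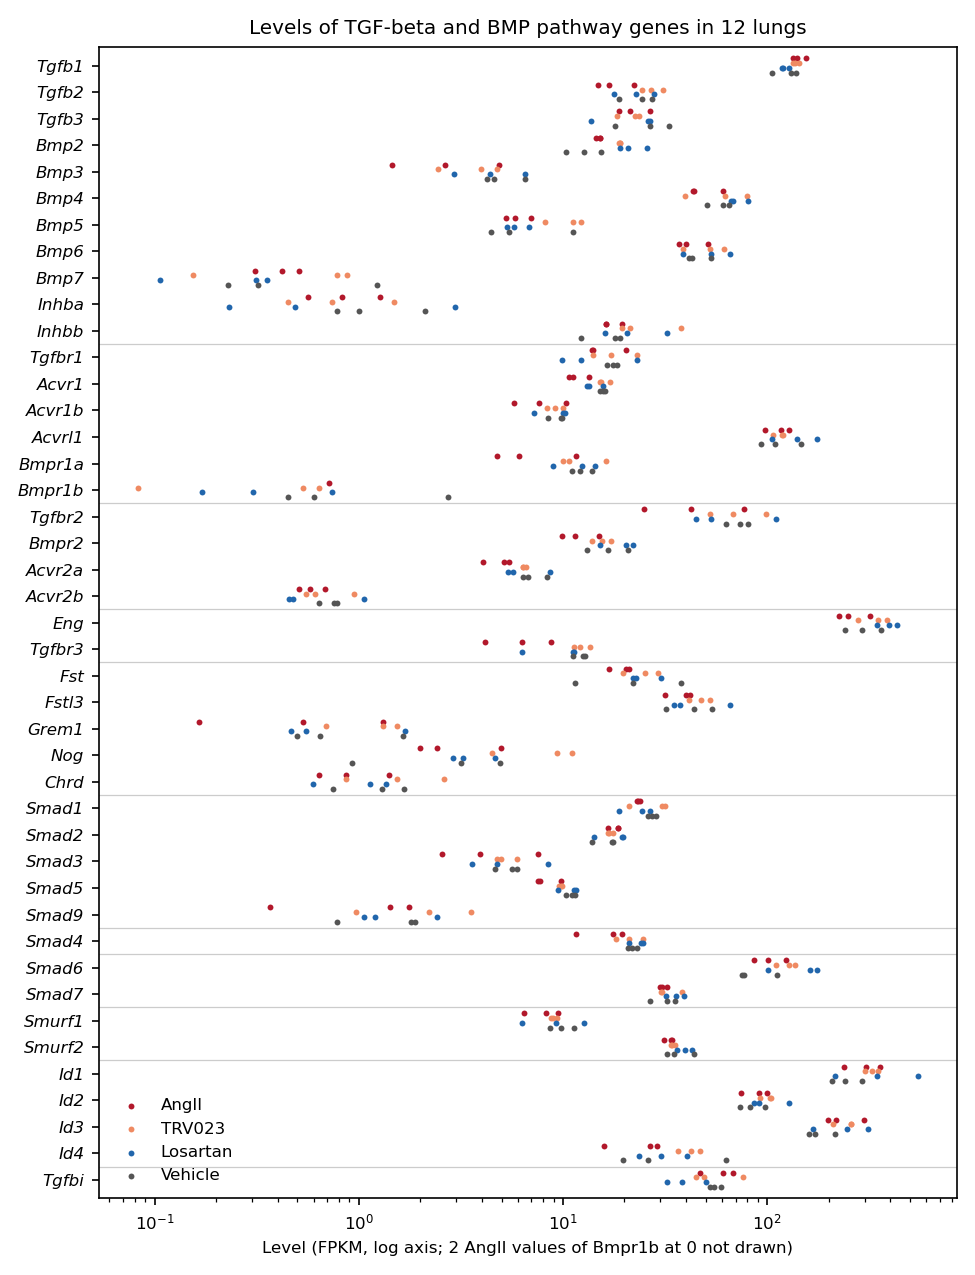
FPKM of each of the 43 genes in each of the 12 lungs on a log axis, grouped by role, with a point for each lung colored by group (AngII, TRV023, losartan, vehicle). Eng and the Id genes lie at the high end and Bmp7, Bmpr1b, Acvr2b and Grem1 at the low end.

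Variation between the 12 lungs differed widely among the genes. The coefficient of variation was lowest for Tgfb1 at 9.9%, Smad2 at 10.4%, Smurf2 at 11.1% and Smad7 at 11.2%. It was highest for the low genes Bmpr1b at 126%, Inhba at 73.4% and Bmp7 at 71.5%, and for the BMP antagonist Nog at 66%. For the 28 genes with a mean of at least 10 FPKM its median was 22.8%, against 15.5% for all 7556 genes at that level.

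No member differed from vehicle at an adjusted p under 0.05 in any of the 3 drug comparisons by edgeR or by DESeq2. Across all genes, edgeR called 0.0133% of 15059 in the AngII comparison, 0.00658% of 15193 in the TRV023 comparison and 0% of 15156 in the losartan comparison, and DESeq2 called 1.42%, 0.712% and 0.0442%. At an unadjusted p under 0.05, Tgfb1 and Id3 were higher and Tgfbr3 was lower with AngII, or 2 and 1 of 43 genes, beside 6.54% higher and 5.39% lower among all genes. With TRV023, Smad6, Bmp2, Id1, Nog, Id3 and Inhbb were higher and no gene was lower, or 6 and 0 of 43, beside 2.61% and 2.96%. With losartan, Smad6 and Bmp2 were higher and no gene was lower, or 2 and 0 of 43, beside 0.686% and 0.963%. In either direction the counts were 3, 6 and 2 of 43, beside 11.9%, 5.56% and 1.65% of all genes. As shares of the members, the higher genes made up 4.65% for AngII, 14% for TRV023 and 4.65% for losartan. The 3 comparisons share their vehicle libraries, so their values are given side by side without a test of overlap.

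**Figure D2:**
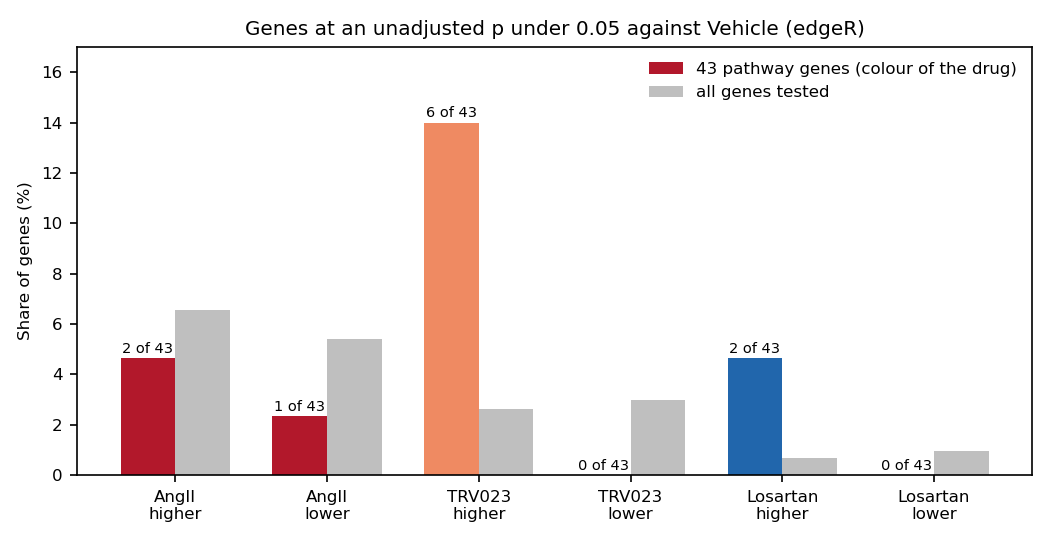
Share of genes, in percent, with an unadjusted edgeR p under 0.05 against vehicle, by drug and direction, for the 43 pathway genes (colored bars, count above) and for all genes tested (gray bars). The share of pathway genes was 14% for higher with TRV023, against 2.61% of all genes.

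These counts moved when single libraries were left out. The TRV023 count ranged from 2 to 4 over the 6 libraries left out in turn, and was 2 without Trv_917, beside 4.32% of all genes, 3 without Trv_918, beside 6.42%, and 3 without Veh_923, beside 4.71%. Without Veh_963, the library with high smooth muscle and cardiac muscle markers, the TRV023 genes were Id1, Id2, Id4 and Bmp5, beside 8.13% of all genes. The AngII count was 11 without Ang2_922 and 1 without Ang2_931, with shares among all genes of 20.4% and 6.6%. For losartan the count was 8 without Los_925, namely Smad6, Bmp4, Bmp2, Id1, Id3 and Eng higher and Tgfbr1 and Tgfbr2 lower, beside 5.47% of all genes, and 4 without Los_964, beside 3.24%. It was 1 without Veh_923, beside 1.33%, or without Veh_963, beside 1.86%, and Bmp2 was that gene in both.

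The median log2 fold change of the 43 genes was -0.12 with AngII, 0.037 with TRV023 and 0.022 with losartan, beside medians over all genes of -0.025, -0.0016 and 0.0063. Of the 43 log2 fold changes, 14 were positive and 29 negative with AngII, 28 positive and 15 negative with TRV023, and 24 positive and 19 negative with losartan. Library totals in place of TMM normalization put the AngII median of all genes at -0.16 and that of the 43 genes at -0.24, and turned the losartan median of the 43 genes to -0.034. Single libraries also moved these medians. With AngII the median was -0.23 without Ang2_922 and -0.025 without Veh_924, where 20 genes were positive and 23 negative. With TRV023 it lay between 0.0083 without Veh_923 and 0.096 without Trv_930, and with losartan between -0.0028 without Veh_923 and 0.12 without Los_965.

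**Figure D3:**
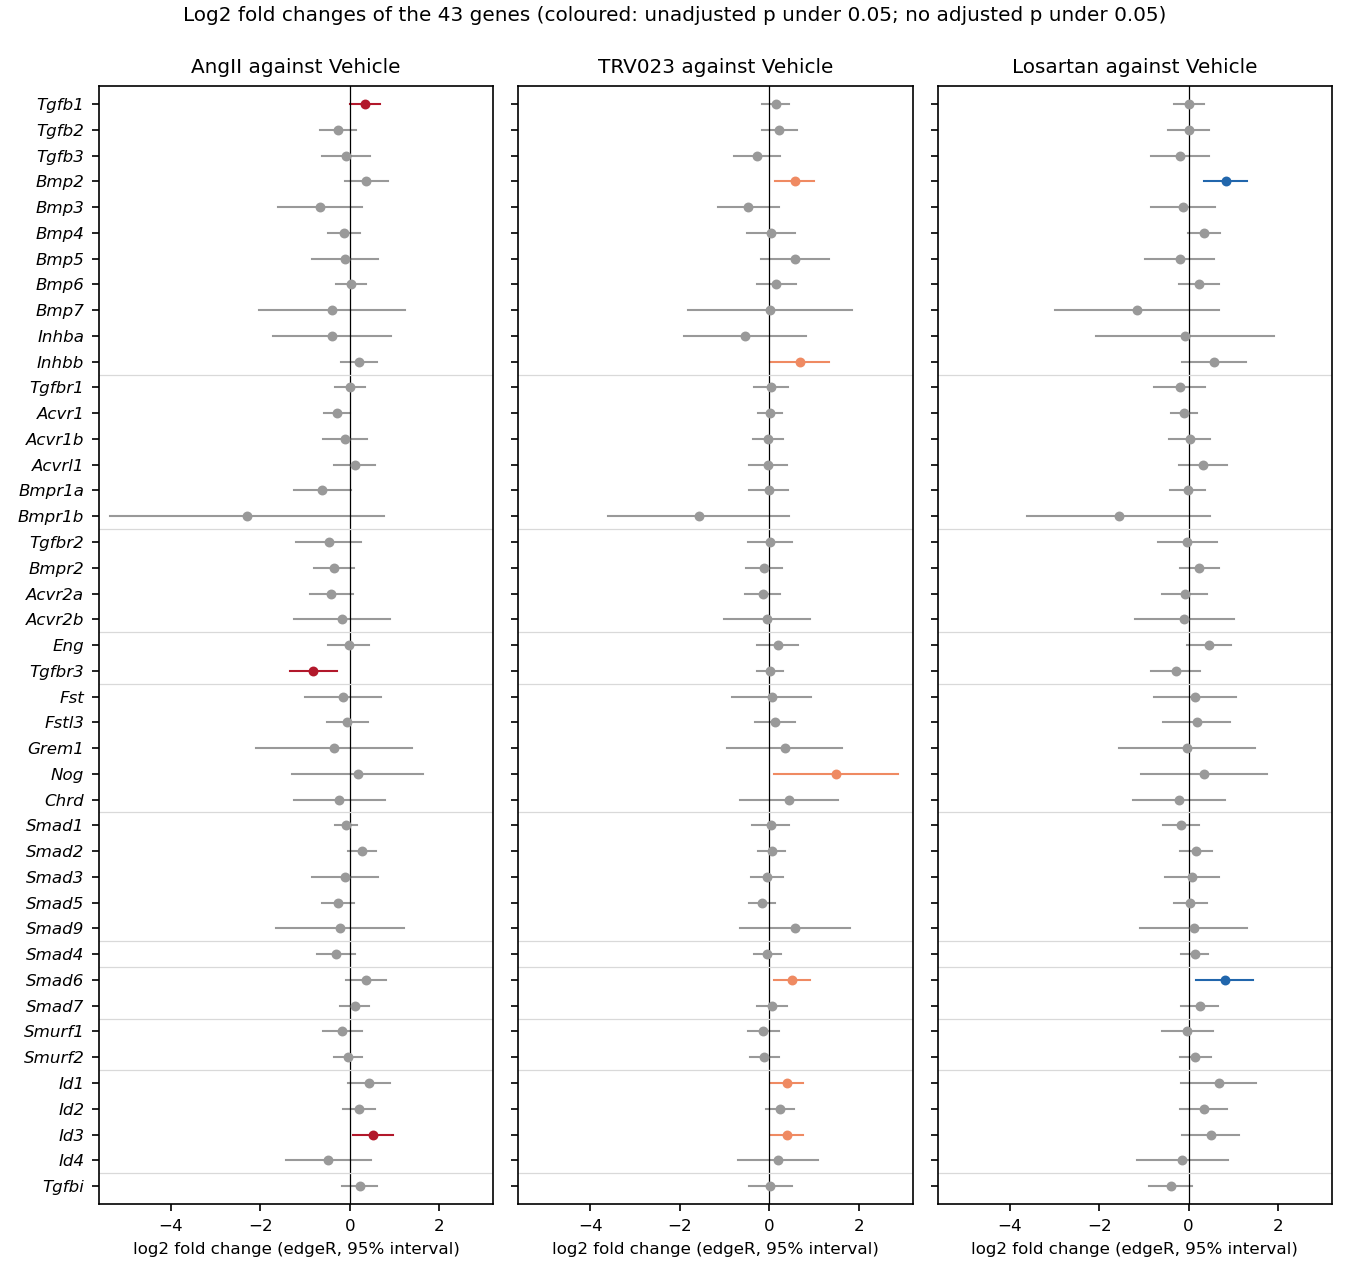
Log2 fold changes against vehicle with 95% intervals from edgeR for the 43 genes, in separate panels for AngII, TRV023 and losartan; colored points have an unadjusted p under 0.05 and gray points do not. No gene passed an adjusted p of 0.05, and the intervals are widest for low genes such as Bmpr1b.

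Bmpr2 (ENSRNOG00000022196, chromosome 9, 66371991 to 66479596 in the coordinates of the deposited tables) encodes the type II receptor of BMP signaling. It was at 15, 9.89 and 11.5 FPKM with AngII, 15.5, 17.2 and 13.8 with TRV023 and 22.1, 15.2 and 20.4 with losartan, against 16.6, 20.8 and 13.1 FPKM with vehicle. Every drug group overlapped vehicle. Means were 12.1 ± 2.62 FPKM with AngII, 15.5 ± 1.72 with TRV023 and 19.2 ± 3.62 with losartan, against 16.8 ± 3.89 with vehicle (SD, n = 3 each). The exact two-sided permutation p was 0.2 for AngII, 0.7 for TRV023 and 0.6 for losartan, where 0.1 is the smallest that 3 against 3 allow. By edgeR the log2 fold changes were -0.35 (95% interval -0.80 to 0.10), -0.12 (-0.53 to 0.29) and 0.23 (-0.20 to 0.67), and each interval included 0. With single libraries left out the AngII value lay between -0.50 without Veh_963, where the unadjusted edgeR p was 0.0266, and -0.17 without Veh_924. The losartan value lay between 0.082 without Veh_963 and 0.42 without Veh_924, and the TRV023 value was 0.066 without Veh_924.

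Acvrl1, Eng and Smad9, the other genes of heritable disease in this list, did not pass the test either. Acvrl1 had 97.8, 117 and 128 FPKM with AngII, 119, 119 and 106 with TRV023 and 140, 105 and 176 with losartan, against 93.3, 147 and 110 with vehicle. Eng had 226, 249 and 320 FPKM with AngII, 389, 347 and 280 with TRV023 and 347, 431 and 394 with losartan, against 292, 361 and 240 with vehicle. The losartan values of Eng reached above all vehicle values in 2 of 3 lungs, with a log2 fold change of 0.46 (SE 0.217, edgeR adjusted p = 0.9999). Smad9, a BMP receptor Smad, was near the low end with 1.77, 0.367 and 1.42 FPKM with AngII, 0.971, 3.55 and 2.2 with TRV023 and 1.2, 1.06 and 2.41 with losartan, against 0.783, 1.88 and 1.81 with vehicle.

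Among the 11 ligands, Bmp2 had the smallest p with TRV023 and with losartan. Bmp2 (chromosome 3, 132822229 to 132830717 in the tables) had 18.8, 19.1 and 19 FPKM with TRV023 and 25.7, 20.8 and 19.1 with losartan, against 12.7, 15.3 and 10.4 with vehicle. With AngII it had 15.3, 15.2 and 14.6 FPKM, inside the vehicle range. All TRV023 and losartan lungs lay above all vehicle lungs, whereas the highest AngII and the highest vehicle lung were level at 15.3 FPKM. Against vehicle the log2 fold change was 0.57 with TRV023 (SE 0.192, edgeR adjusted p = 0.740), 0.82 with losartan (SE 0.211, edgeR adjusted p = 0.9999) and 0.37 with AngII (SE 0.213, edgeR adjusted p = 0.502). AngII set against TRV023 gave -0.19 (SE 0.178, edgeR adjusted p = 0.730), and against losartan -0.44 (SE 0.178, edgeR adjusted p = 0.486). In the test for any difference among the 4 groups Bmp2 had an edgeR adjusted p of 0.456, with 0.0191% of 15716 genes called. Tgfbr3, Smad6 and Bmp2 had an unadjusted p under 0.05 in that test, or 3 of 43 beside 8.23% of all genes. DESeq2's likelihood-ratio test called Bmp2 there (adjusted p = 0.0246) as 1 of 43 members, beside 1.11% of 17347 genes.

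Tgfb1, made as a latent ligand by many lung cells, had 135, 140 and 156 FPKM with AngII, 143, 137 and 134 with TRV023 and 127, 119 and 118 with losartan, against 139, 130 and 106 with vehicle. The AngII and vehicle lungs overlapped, and the log2 fold change of 0.34 (SE 0.143, edgeR adjusted p = 0.414) was 0.24 without Veh_963. Inhbb, a subunit of activin B and inhibin B, had 37.8, 21.3 and 19.5 FPKM with TRV023, 19.4, 16.2 and 16.2 with AngII and 20.6, 32.3 and 16.1 with losartan, against 19.1, 18 and 12.2 with vehicle. The TRV023 lungs lay above the vehicle lungs by a narrow margin except for Trv_917, with a log2 fold change of 0.68 (SE 0.284, edgeR adjusted p = 0.866) that was 0.30 without Trv_917. Bmp4, a BMP ligand, had 67.9, 66.6 and 80.9 FPKM with losartan, all above the 65.4, 60.6 and 50.7 FPKM with vehicle, with a log2 fold change of 0.34 (SE 0.156, edgeR adjusted p = 0.9999). Its values were 60.8, 43.7 and 43.5 FPKM with AngII and 62.4, 80 and 39.4 FPKM with TRV023, of which Ang2_922 and Trv_917 lay inside the vehicle range. Bmp4 and the ligands Tgfb2, Tgfb3, Bmp3, Bmp5, Bmp6, Bmp7 and Inhba had no unadjusted p under 0.05 against vehicle.

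With AngII all 4 type II receptors had negative log2 fold changes, of -0.47 to -0.17, as did 4 of 6 type I receptors, beside 7923 of all 15059 genes. Tgfbr2, the TGF-β type II receptor, had 77.4, 25.1 and 42.6 FPKM with AngII, 67.9, 98.4 and 52.5 with TRV023 and 111, 52.8 and 45 with losartan, against 73.9, 80.2 and 62.5 with vehicle. Among the AngII lungs of Tgfbr2, Ang2_922 lay inside the vehicle range and the others below it. Bmpr1a, a BMP type I receptor, had 11.6, 4.76 and 6.07 FPKM with AngII, 10.7, 16.2 and 10 with TRV023 and 14.3, 8.95 and 12.4 with losartan, against 11.1, 12.1 and 13.9 with vehicle (log2 fold change -0.61, SE 0.283, edgeR adjusted p = 0.435). Acvr1, another BMP type I receptor, had 13.4, 10.7 and 11.2 FPKM with AngII, 16.9, 15.2 and 15.4 with TRV023 and 15.8, 13.4 and 13.1 with losartan, against 15.2, 15.7 and 16 with vehicle. The AngII lungs of Acvr1 were all below the vehicle lungs (log2 fold change -0.28, SE 0.128, edgeR adjusted p = 0.434). Bmpr1b had 0.712, 0 and 0 FPKM with AngII, 0.0828, 0.531 and 0.64 with TRV023 and 0.303, 0.737 and 0.171 with losartan, against 0.602, 0.45 and 2.72 with vehicle, with 0 to 82 reads per library. None of the type I and type II receptors, Tgfbr1, Acvr1b, Acvr2a and Acvr2b among them, had an unadjusted edgeR p under 0.05 against vehicle with all libraries.

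Tgfbr3, betaglycan, the co-receptor that presents TGF-β2 and binds inhibin, had the smallest p among the members in the AngII comparison. It lies on chromosome 14, 3509601 to 3683814 in the tables. It had 8.73, 4.14 and 6.31 FPKM with AngII, 11.4, 12.1 and 13.6 with TRV023 and 11.2, 11.4 and 6.33 with losartan, against 11.2, 12.5 and 12.9 with vehicle. The AngII lungs were all below the vehicle and the TRV023 lungs, and among losartan lungs Los_965 was as low. The log2 fold change with AngII was -0.81 (SE 0.228, 95% interval -1.33 to -0.29), with an adjusted p of 0.338 by edgeR and 0.0750 by DESeq2. It ranged from -1.04 to -0.59 over the 6 libraries left out in turn, with an unadjusted edgeR p under 0.05 in 6 of 6. The edgeR adjusted p in these refits lay between 0.0975 without Ang2_922 and 0.729 without Ang2_931. Tgfbr3 is singled out here for its small p in the same libraries, so these refits are no test of it.

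Between AngII and vehicle, FPKM of the groups did not overlap for Acvr1, Acvr2a, Smad1, Smad4, Smad5 and Tgfbr3, all lower with AngII, or 6 of the 39 members averaging at least 1 FPKM, beside 16.5% lower among 13755 genes. No member was higher without overlap, beside 5.13%. FPKM is scaled to library totals. In edgeR that scaling gave an AngII median over all genes of -0.16, against -0.025 with TMM. For Smad1 the AngII log2 fold change with TMM was -0.085 (SE 0.110, edgeR adjusted p = 0.766). With TRV023, Bmp2, Id1 and Inhbb were higher without overlap, or 3 of 40 beside 4.94% of 13920 genes, and Smad5 was lower, or 1 of 40 beside 5.01%. With losartan, Bmp2 and Bmp4 were higher, or 2 of 39 beside 1.95% of 13867 genes, and the TGF-β-induced matrix protein Tgfbi was lower, or 1 of 39 beside 3.37%. Tgfbi had 38.1, 50 and 32.5 FPKM with losartan, 47, 68 and 60.6 with AngII and 49, 44.8 and 75.8 with TRV023, against 59.2, 52.5 and 54.8 with vehicle.

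The 5 antagonists bind ligands outside the cell. Nog, which sequesters BMPs, had 11.1, 4.49 and 9.37 FPKM with TRV023, 4.96, 1.98 and 2.41 with AngII and 2.89, 4.66 and 3.23 with losartan, against 3.15, 4.9 and 0.926 with vehicle. Trv_917 and Trv_930 lay above every vehicle lung, and Trv_918 lay inside the vehicle range. The log2 fold change with TRV023 was 1.48 (SE 0.602, edgeR adjusted p = 0.848) and was 1.06 without Veh_963, the lowest vehicle lung. Nog is read from 13 to 125 reads per library. Fstl3, the most abundant antagonist, had 40, 42 and 31.6 FPKM with AngII, 52.6, 47.4 and 41.5 with TRV023 and 35.1, 65.9 and 37.3 with losartan, against 31.9, 44 and 53.4 with vehicle. Fst, Fstl3, Grem1 and Chrd had no unadjusted p under 0.05 in any drug comparison with vehicle.

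Among the Smads, Smad6 had an unadjusted p under 0.05 with both TRV023 and losartan. Smad6 (chromosome 8, 68608917 to 68676631 in the tables) had 128, 138 and 110 FPKM with TRV023, 102, 175 and 162 with losartan and 101, 86.4 and 123 with AngII, against 77.1, 112 and 75.2 with vehicle. Veh_924 overlapped the TRV023 and losartan lungs, and the other vehicle lungs were below all of them. The log2 fold change was 0.51 with TRV023 (SE 0.178, edgeR adjusted p = 0.777), 0.80 with losartan (SE 0.279, edgeR adjusted p = 0.9999) and 0.37 with AngII (SE 0.195, edgeR adjusted p = 0.477). Smad7, the inhibitory Smad of both branches, had log2 fold changes of 0.11 with AngII, 0.06 with TRV023 and 0.24 with losartan. Smad4, the partner shared by all receptor Smads, had 19.4, 11.6 and 17.7 FPKM with AngII, 18.3, 24.7 and 21.1 with TRV023 and 24.6, 21 and 24.1 with losartan, against 23.2, 20.9 and 21.7 with vehicle. The AngII lungs of Smad4 were all below the vehicle lungs (log2 fold change -0.31, SE 0.185, edgeR adjusted p = 0.517). Smad1, the most abundant BMP receptor Smad, had 23.8, 23.3 and 23.1 FPKM with AngII, 30.6, 21 and 31.8 with TRV023 and 24.4, 26.7 and 18.9 with losartan, against 26, 27.4 and 28.4 with vehicle. Smurf2 had 33.8, 31.1 and 34.1 FPKM with AngII, 33.8, 35.2 and 34.3 with TRV023 and 43, 36.3 and 39.7 with losartan, against 35.1, 43.7 and 32.4 with vehicle. The receptor Smads Smad1, Smad2, Smad3 and Smad5, like Smurf1 and Smurf2, which mark receptors and Smads for degradation, had no unadjusted p under 0.05 against vehicle.

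The Id genes are inhibitors of basic helix-loop-helix transcription factors and early BMP targets. Their log2 fold changes were positive for 3 of 4 with AngII, 4 of 4 with TRV023 and 3 of 4 with losartan. Among all genes, 7136 of 15059, 7544 of 15193 and 7780 of 15156 were positive, and the 3 comparisons share their vehicle lungs. Id1 had 238, 358 and 306 FPKM with AngII, 300, 328 and 348 with TRV023 and 215, 548 and 346 with losartan, against 208, 240 and 292 with vehicle. All TRV023 lungs lay above all vehicle lungs for Id1, while AngII and losartan each overlapped vehicle. Id3 had 218, 298 and 198 FPKM with AngII, 257, 256 and 210 with TRV023 and 168, 313 and 246 with losartan, against 172, 216 and 160 with vehicle. Each drug group overlapped vehicle for Id3. With TRV023 the log2 fold change was 0.40 for Id1 (SE 0.156, edgeR adjusted p = 0.838) and 0.40 for Id3 (SE 0.155, edgeR adjusted p = 0.834). With AngII it was 0.43 for Id1 (SE 0.202, edgeR adjusted p = 0.446) and 0.52 for Id3 (SE 0.194, edgeR adjusted p = 0.381), where the value for Id3 was 0.30 without Ang2_931. Id2 had 91.2, 100 and 74.4 FPKM with AngII, 92.3, 105 and 103 with TRV023 and 86.4, 128 and 91.4 with losartan, against 73.9, 82.8 and 97.3 with vehicle. Id4 had log2 fold changes of -0.48 with AngII, 0.20 with TRV023 and -0.14 with losartan, with Veh_963 at 63.2 FPKM and the other vehicle lungs at 19.7 and 26 FPKM.

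**Figure D4:**
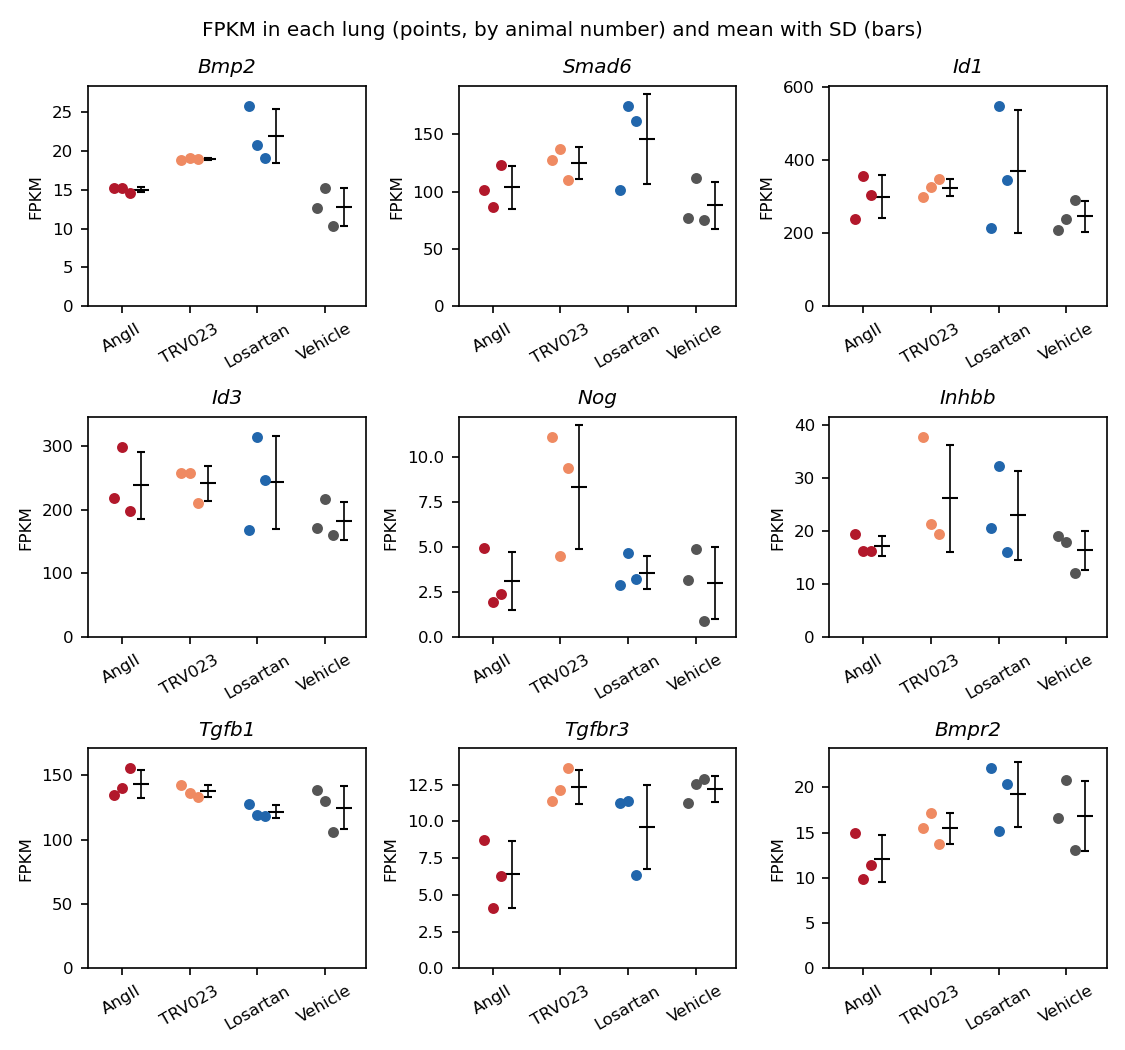
FPKM of Bmp2, Smad6, Id1, Id3, Nog, Inhbb, Tgfb1, Tgfbr3 and Bmpr2 in each lung (points) with the mean and SD of 3 lungs per group (bars), for AngII, TRV023, losartan and vehicle. For Bmp2 the TRV023 lungs lie at 18.8 to 19.1 FPKM and the vehicle lungs at 10.4 to 15.3 FPKM.

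The promoters of Id1, Id3, Nog and Inhbb are printed because these genes had an unadjusted p under 0.05 with TRV023 and an entry in the RefSeq promoter table (GRCr8, 250 bases before to 50 after each start). Bmp2 and Smad6 are named only. The windows are chr3:161671314-161671613 on the plus strand for Id1, chr5:153656041-153656340 on the plus strand for Id3, chr10:74627452-74627751 on the minus strand for Nog and chr13:33089324-33089623 on the minus strand for Inhbb. Capitals mark GGCGCC, a motif of BMP-responsive elements that reads the same on both strands, and CAGAC, the Smad box, searched on both strands (its reverse complement is GTCTG).
Id1: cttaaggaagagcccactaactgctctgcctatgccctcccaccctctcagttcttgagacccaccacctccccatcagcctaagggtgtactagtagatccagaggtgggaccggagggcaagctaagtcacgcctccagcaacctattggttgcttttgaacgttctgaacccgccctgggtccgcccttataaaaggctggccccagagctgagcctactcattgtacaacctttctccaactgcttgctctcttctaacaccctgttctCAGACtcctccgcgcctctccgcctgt
Id3: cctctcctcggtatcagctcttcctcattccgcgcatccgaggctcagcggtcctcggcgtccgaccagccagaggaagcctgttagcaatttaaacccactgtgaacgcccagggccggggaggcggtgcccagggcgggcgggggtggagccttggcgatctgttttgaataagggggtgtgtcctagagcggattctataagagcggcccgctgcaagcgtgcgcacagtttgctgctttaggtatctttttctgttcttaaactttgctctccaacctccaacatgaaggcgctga
Nog: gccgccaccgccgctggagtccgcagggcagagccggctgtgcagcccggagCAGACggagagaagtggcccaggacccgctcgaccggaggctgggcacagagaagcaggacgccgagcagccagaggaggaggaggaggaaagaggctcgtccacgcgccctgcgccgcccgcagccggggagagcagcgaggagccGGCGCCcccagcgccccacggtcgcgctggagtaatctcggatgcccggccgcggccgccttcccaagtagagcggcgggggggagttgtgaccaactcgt
Inhbb: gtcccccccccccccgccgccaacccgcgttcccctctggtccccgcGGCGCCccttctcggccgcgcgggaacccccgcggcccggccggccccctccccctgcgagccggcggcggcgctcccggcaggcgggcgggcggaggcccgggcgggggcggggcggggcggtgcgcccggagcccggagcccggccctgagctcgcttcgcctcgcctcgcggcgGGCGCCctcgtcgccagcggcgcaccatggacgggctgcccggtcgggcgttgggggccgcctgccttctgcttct
Id1 held 1 CAGAC, Nog held 1 CAGAC and 1 GGCGCC, Inhbb held 2 GGCGCC and Id3 held neither motif. Among all 33469 windows of the table, 11% held GGCGCC and 50.1% held CAGAC. Of the 36 windows of the 35 members with an entry, 41.7% held GGCGCC and 27.8% held CAGAC, while their median GC content was 66%, against 51.7% for all windows. These are matches of letters, not sites of binding.

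**Figure D5:**
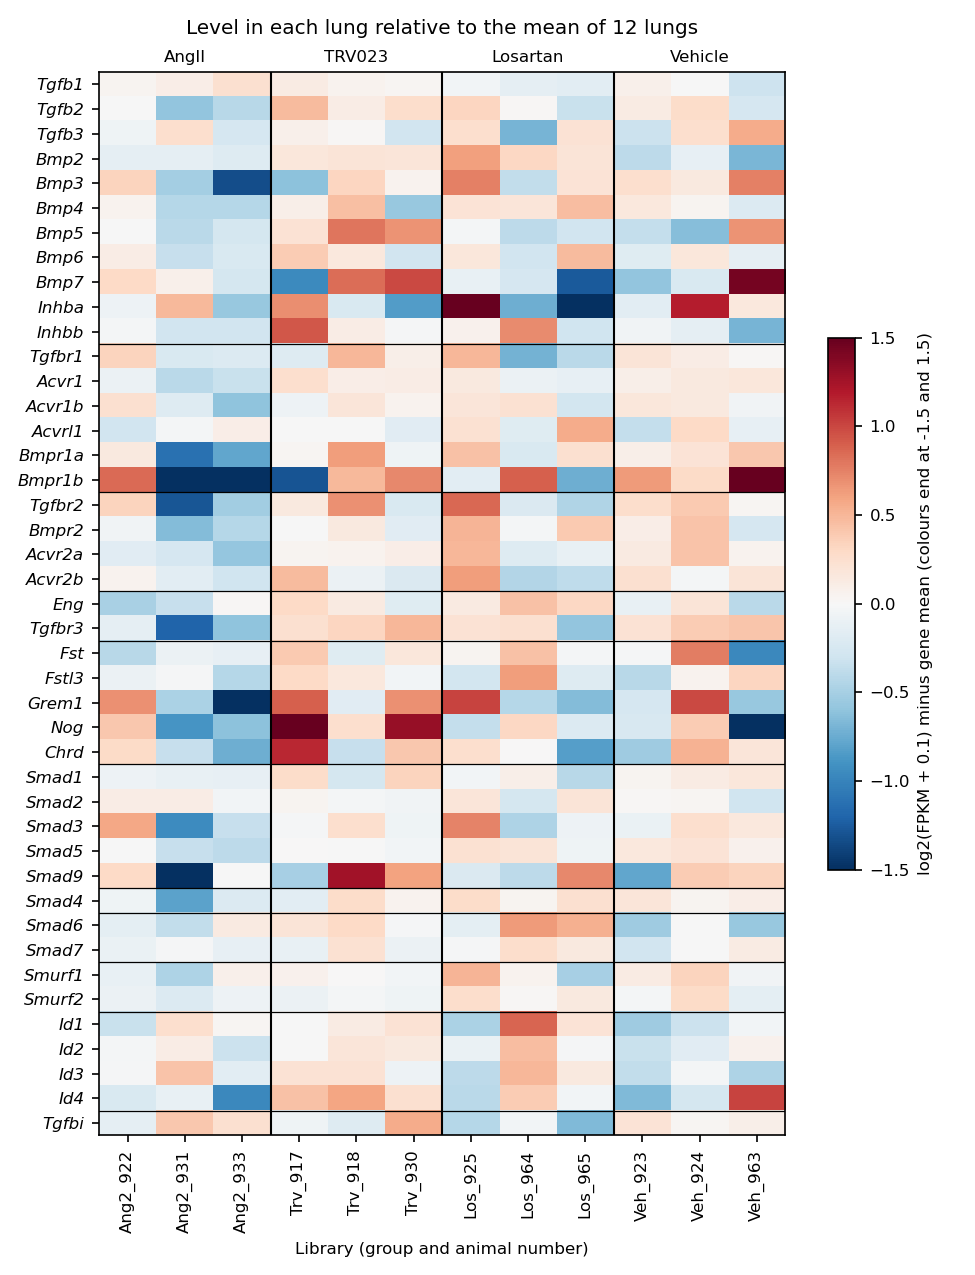
Level of each gene in each lung relative to its own mean over 12 lungs, as log2(FPKM + 0.1) minus that mean (red above, blue below, colors ending at -1.5 and 1.5), with groups from left to right AngII, TRV023, losartan and vehicle. Veh_963 is low for Nog and Bmp2, and Ang2_931 and Ang2_933 are low for Bmpr1a, Tgfbr2 and Tgfbr3.

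Drugs were also set against each other in a single fit of all 12 libraries. No member passed an adjusted p of 0.05 by edgeR or DESeq2, and edgeR called 0% of 15716 genes in each of these comparisons, while DESeq2 called 1.44% of genes for AngII against TRV023, 0.0884% for TRV023 against losartan and 0.649% for AngII against losartan. At an unadjusted p under 0.05, Tgfbr3, Tgfb2, Acvr1, Bmpr1a, Bmp5 and Nog were lower with AngII than with TRV023, or 6 of 43 beside 5.63% of all genes, and none was higher, beside 5.43%. The doses of these peptides differed, with AngII at 1 mg/kg/day and TRV023 at 10 µg/kg/min. Bmp5, a BMP ligand, was the only member between TRV023 and losartan, with 8.14, 12.2 and 11.2 FPKM with TRV023 and 6.83, 5.32 and 5.73 FPKM with losartan, beside 2.33% of genes higher and 2.32% lower. Between AngII and losartan, Tgfbi and Tgfb1 were higher and Smad4, Bmp2, Bmpr2 and Eng were lower with AngII, or 2 and 4 of 43 beside 4.71% and 4.7%. For Bmpr2 the highest AngII lung, Ang2_922 at 15 FPKM, was just below the lowest losartan lung, Los_964 at 15.2 FPKM. The share of all genes without overlap between these drugs was not counted. With library totals, as in FPKM, the all-gene median between these drugs was -0.11, against -0.016 with TMM. The log2 fold change of Bmpr2 with TMM was -0.57 (SE 0.182, edgeR adjusted p = 0.403).

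Other genes of the pathway were followed in 8 lists, 76 genes in all, of which 59, 62 and 60 were tested in the AngII, TRV023 and losartan comparisons. None was called by edgeR. At an unadjusted p under 0.05, 0 of 59 were higher and 5 lower with AngII, beside 6.54% and 5.39% of all genes. With TRV023 1 of 62 was higher and 3 were lower, beside 2.61% and 2.96%, and with losartan 2 of 60 were higher and 0 lower, beside 0.686% and 0.963%. Thbs1, Zfyve9 and Itgb6 are named after their values were seen. Crim1, a membrane protein that binds BMPs, had 12.8, 7.01 and 9.4 FPKM with AngII, against 17.5, 19.6 and 16.1 with vehicle (log2 fold change -0.74, SE 0.193, edgeR adjusted p = 0.325). Thbs1, an activator of latent TGF-β, had 76.5, 40.8 and 43.2 FPKM with AngII, against 94.5, 140 and 64.4 with vehicle, and Zfyve9, which brings Smads to the receptor, had a log2 fold change of -0.36. Chrdl1, a BMP antagonist, and Fstl1, a secreted BMP-binding protein, were among the lower genes with both AngII and TRV023. Veh_963 held 11.7 FPKM of Chrdl1 against 2.01 and 2.46 FPKM in the other vehicle lungs. Fstl1 had 50.5, 25.8 and 34.4 FPKM with AngII and 45.3, 43.1 and 38.8 with TRV023, against 48.4, 62.8 and 68.6 with vehicle. With TRV023 the others were Itgb6, a chain of an integrin that activates TGF-β, at a log2 fold change of -0.51, and the cell cycle inhibitor Cdkn2b at 0.31. With losartan, Hey1, a BMP and Notch target, had 15.9, 21 and 23 FPKM, against 10.8, 13.8 and 13.3 with vehicle, and the decoy receptor Bambi had a log2 fold change of 0.55.

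Several of the genes above are made mainly by endothelial cells, among them Eng, Acvrl1 and Smad6. The summed level of 8 endothelial markers was 1094 to 1644 FPKM with AngII, 1154 to 1757 with TRV023 and 1372 to 2123 with losartan, against 1105 to 1497 with vehicle, and no marker was at 0 in all libraries. With losartan 7 of the 8 markers had a positive log2 fold change, with a median of 0.50, beside 7780 of all 15156 genes. With TRV023 5 of 8 were positive, with a median of 0.08, beside 7544 of all 15193 genes. The part of endothelial content in the values of Smad6, Bmp2, Eng and Id1 was not tested.

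Markers of other cell types also differed between the lungs. With AngII, all 5 ciliated markers tested had negative log2 fold changes, with a median of -1.20. Of these, 3 had an unadjusted p under 0.05, beside 5.39% of all genes lower at that p. The summed level of ciliated markers was 13.9 to 27.6 FPKM with AngII, against 30.2 to 62.4 with vehicle. All 3 club cell markers tested were also lower at that p, with a median of -0.90. Their summed level overlapped, at 6802 to 14090 FPKM with AngII against 15800 and 13120 with vehicle and 30920 in Veh_963. Fibroblast markers summed to 1410 to 1644 FPKM with AngII, 1527 to 1802 with TRV023 and 1114 to 1773 with losartan, all below the vehicle lungs, of which the lowest had 1838 FPKM. Alveolar type 1 markers summed to 2442 to 2847 FPKM with AngII, below vehicle, and to 3142 to 4326 with TRV023 and 3564 to 3891 with losartan, above the 2885 to 3123 FPKM with vehicle. With TMM, 4 of these 6 markers were negative and 2 positive with AngII, with a median of -0.11 and no unadjusted p under 0.05. Among single genes, 16.5% were lower in FPKM without overlap with AngII, 5.01% with TRV023 and 3.37% with losartan. The shares higher without overlap were 5.13%, 4.94% and 1.95%. Platelet markers summed to 225 to 390 FPKM with AngII and 269 to 420 with TRV023, above the 177 to 218 FPKM with vehicle. By entry, however, 1 log2 fold change was positive and 4 were negative with TRV023, with a median of -0.08. With AngII 5 were positive and 1 was negative, with a median of 0.85. Neutrophil markers summed to 357 to 700 FPKM with TRV023, above the 141 to 319 FPKM with vehicle, and overlapped vehicle with AngII and losartan. Of 7 smooth muscle markers, 6 had negative log2 fold changes with AngII and all 7 with TRV023 and with losartan. None had an unadjusted p under 0.05. Among all genes, 7923 of 15059, 7649 of 15193 and 7376 of 15156 were negative. Smooth muscle sums were 683 to 1085 FPKM with AngII, 807 to 1320 with TRV023 and 845 to 1370 with losartan. All overlapped the vehicle lungs, which had 749 and 1104 FPKM and, in Veh_963, 2765 FPKM. The 3 comparisons share Veh_963. Of 6 mesothelial markers, 5 were negative with AngII and all 6 with TRV023 and with losartan. No marker found in these lists was at 0 in all libraries, and their part in the values of the receptors and of the other pathway genes was not tested.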

How the data were processed

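Lung RNA of 12 MCT rats was sequenced, and groups were read from the sample labels. The members and gene lists were chosen with earlier results of these data known. The authors had the reads aligned to the rat genome and counted for each gene, and these counts were deposited unscaled. The FPKM values were made by the authors from these counts, gene length and library total. Not given in the sources used here are the aligner, the counter, the build, the annotation and the strandedness. For 89.3% of values FPKM equaled the value rebuilt from the listed gene length within 1%, and for members it was up to 1.35 times the rebuilt value, so levels of different genes rest on the authors' lengths. The deposited columns of scaled counts, log2 fold changes and p-values were not used, nor were the shorter tables of genes the authors had called.

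For each drug, the deposited counts of its 3 libraries and of the 3 vehicle libraries were fitted in edgeR 4.0.16 (R 4.3.3) after filterByExpr and TMM scaling, tested with glmQLFTest on a glmQLFit model, and adjusted by Benjamini-Hochberg over all genes tested. All 43 members passed the filter. SE was taken from the F statistic. Drugs were compared with each other, and all 4 groups at once, in a fit of 12 libraries with 15716 genes. Genes whose FPKM did not overlap between groups were counted among those averaging 1 FPKM or more. Bmpr2 was tested by an exact two-sided permutation test in scipy 1.17.1. Counted reads of 16106337 to 20096877 per library gave 0 to 82 reads for Bmpr1b and 11314 to 20526 for Eng. The scripts were tested on simulated data. Alternatives were DESeq2 1.42.0, limma 3.58.1 (voom, and log2 of FPKM with a pseudocount of 1 or 0.1), RLE or library totals, no filter or a minimum of 10 counts per library, 1 fit of all groups, removal of the gene length trend (lowess, span 0.3), an adjusted p under 0.1, and each library left out.

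Values in every library are given, by a rule, for Bmpr2, Acvrl1, Eng, Smad9, Tgfb1, Tgfbr2, Id1, Id2 and Id3, for the 6 members of smallest p in each drug comparison and the 4 in the test of all groups, for the most abundant of each role, and for those without reads in some library. Of the further pathway lists, up to 3 genes of smallest p in a comparison are named where none was called. Figures were drawn with matplotlib 3.10.9.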

Additional observations from a re-analysis of the deposited data

How the results depend on the processing

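No member was called at an adjusted p under 0.05 in any drug comparison with vehicle under any alternative, nor between drugs. The threshold of 0.1 was applied to the main fit only. Tgfbr3 was under 0.1 for AngII against vehicle with DESeq2 (0.0750) and in edgeR without Ang2_922 (0.0975). Between AngII and TRV023, Tgfbr3 with DESeq2 (0.0885) and Bmpr1a in edgeR without Ang2_922 (0.09996) were also under 0.1. The settings on log2 FPKM and on 10 counts per library tested 39 to 41 members. In the test of all 4 groups DESeq2 called 1 member, Bmp2, where edgeR called 0, and the cause was not tested. The count of members at an unadjusted p under 0.05 for AngII, 3 in edgeR, was 5 with DESeq2, with limma-voom, with limma on log2(FPKM + 1) or log2(FPKM + 0.1) and with library totals. It ranged from 1 to 11 with each library left out. For TRV023, 6 in edgeR, it was 3 with all 4 groups in 1 fit and 2 to 4 with each library left out. For losartan, 2 in edgeR, it was 1 to 8 with each library left out. The causes of these moves were not tested. The 14 gene results followed here were the members at an unadjusted edgeR p under 0.05 against vehicle, and Bmpr2 in each comparison. Members chosen this way can hardly turn sign in refits of the same libraries, so their kept directions are no test. Of the 224 alternative values of these results, 223 kept their direction. The exception was Bmpr2 with TRV023, whose log2 fold change was 0.066 without Veh_924 and lay between -0.27 and 0.066 with each library left out. The TRV023 minus vehicle difference of Bmpr2 was 0.662 FPKM without Veh_924, and ranged from -3.22 to 0.662 FPKM with each library left out. No paired analysis was possible because the animal numbers differ between groups.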
